A study of Bos taurus with 2 samples.

Results

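The miR-200 family was measured in cow milk whey that had been separated by centrifugation. The pellet is called exosome, after the small vesicles that cells shed into milk, and the liquid over it supernatant. The family was taken as every array entry named bta-miR-200a, bta-miR-200b, bta-miR-200c, bta-miR-141 or bta-miR-429 (the prefix, for cattle, is left out from here on), which gave 5 of the 670 bovine miRNAs on the array. Each name had 1 entry and 2 probes, and no entry carried an arm suffix. The study's question was how the miRNAs of raw milk are divided between these fractions.

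Both groups came from raw milk of Holstein cows. Whey was spun at 10000 g for 90 min at 4 °C; the exosome group is the washed pellet and the supernatant group the liquid. The labels call the spin ultracentrifugation and name no marker of vesicles. RNA from 3 milk samples was pooled per fraction, and 40 ng of each pool was labelled, so a signal is relative to the RNA of its fraction and not to a volume of milk. There is 1 array per fraction, no replicate check, and therefore no test. Each ± is the SD over spots within an array, a technical spread. In such pooled fluid, fewer vesicles or cells carrying a miRNA and less of it in each cannot be told apart.

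The miR-200 family marks epithelial cells, including those that line the mammary gland. Its members bind the messages of ZEB1 and ZEB2, repressors of E-cadherin, and so hold cells in the epithelial state, while ZEB1 and ZEB2 in turn repress the genes of the family. A miRNA recognises its targets mainly through its seed, a few bases near its 5′ end. As usually assigned, miR-200b, miR-200c and miR-429 share 1 seed, and miR-200a and miR-141 share another that differs by 1 base. The genes lie in 2 clusters that cut across the seeds, with miR-200b, miR-200a and miR-429 in 1 and miR-200c and miR-141 in the other.

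The longer probe of each member is shown because the members differ by only a few bases. Signals per miRNA below average the longer and the shorter probe. Capitals mark the only run of 5 bases found in all the longer probes, written 5′ to 3′ as in the scanner files.
miR-200b: catcaTTACCaggcagt
miR-200a: aacatcgTTACCagacag
miR-429: acggcaTTACCagacagta
miR-200c: tccatcaTTACCcgg
miR-141: ccatctTTACCagacag
The shorter probe of each lacks the last base. The marked run occurred in the longest probe of 7 of the 670 miRNAs, or 1.04%. Likeness between probes did not follow the clusters: miR-200a, miR-429 and miR-141 share a run of 11 bases, miR-200b and miR-200c share 10, and the neighbours miR-200c and miR-141 share at most 5. Over the whole length of the shorter of 2 compared probes, none of the 10 family probes was within 1 mismatch of another miRNA's probe. The closest by that measure, among miR-200a, miR-200b and miR-141, had 2 mismatches. Alignments in which the shorter probe overhangs the longer were not scored. Among these is the alignment of the 10 bases shared by miR-200b and miR-200c.

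The array design, in HGSC Btau_3.1, places the longer probes of the chromosome 16 cluster at 48595069 to 48595084 for miR-200b, 48594416 to 48594432 for miR-200a and 48593178 to 48593195 for miR-429. Those of the chromosome 5 cluster lie at 10483408 to 10483421 for miR-200c and 10482991 to 10483006 for miR-141. Each interval is 1 base shorter than its probe, so an end is known to within 1 base. Between neighbouring probes lie 636 and 1220 bases in the chromosome 16 cluster and 401 bases in the chromosome 5 cluster. All 5 names matched a miRNA gene of RefSeq (assembly ARS-UCD2.0, from which only names and neighbouring genes were taken). MIR200C and MIR141 overlap the long noncoding RNA LOC112446758. MIR200B, MIR200A and MIR429 overlap no other listed gene and lie within 10 kb of the protein-coding gene TTLL10.

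The comparison of detection asked which members each fraction held. The family was seen mainly in the exosome fraction: the exosome array detected 4 of 5 members and the supernatant array 2 of 5. A probe counts as detected when at least 50% of its spots are well above background, and a miRNA when at least 1 of its probes is. By the same rule the exosome array detected 9.85% of all 670 miRNAs and the supernatant array 12.7%. miR-200c and miR-141 were detected on both arrays (4.48% of all miRNAs), miR-200b and miR-200a on the exosome array only (5.37%), and miR-429 on neither (81.9%); 0 were on the supernatant array alone (8.21%).

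Detection on the supernatant array split by cluster. Both members of the chromosome 5 cluster were detected there and 0 of 3 members of the chromosome 16 cluster. On the exosome array the counts were 2 of 2 and 2 of 3. Each seed group had 1 member on the supernatant array, miR-200c of 3 and miR-141 of 2, and 2 members on the exosome array. The 2 members detected in supernatant were also the brightest on the exosome array, miR-200c at 343 and miR-141 at 302. There miR-200b read 88.5, miR-200a 24.8 and miR-429 9.18. A split by cluster therefore cannot be told apart here from a split by brightness. With 5 miRNAs these counts are a description and were not tested.

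**Figure D1:**
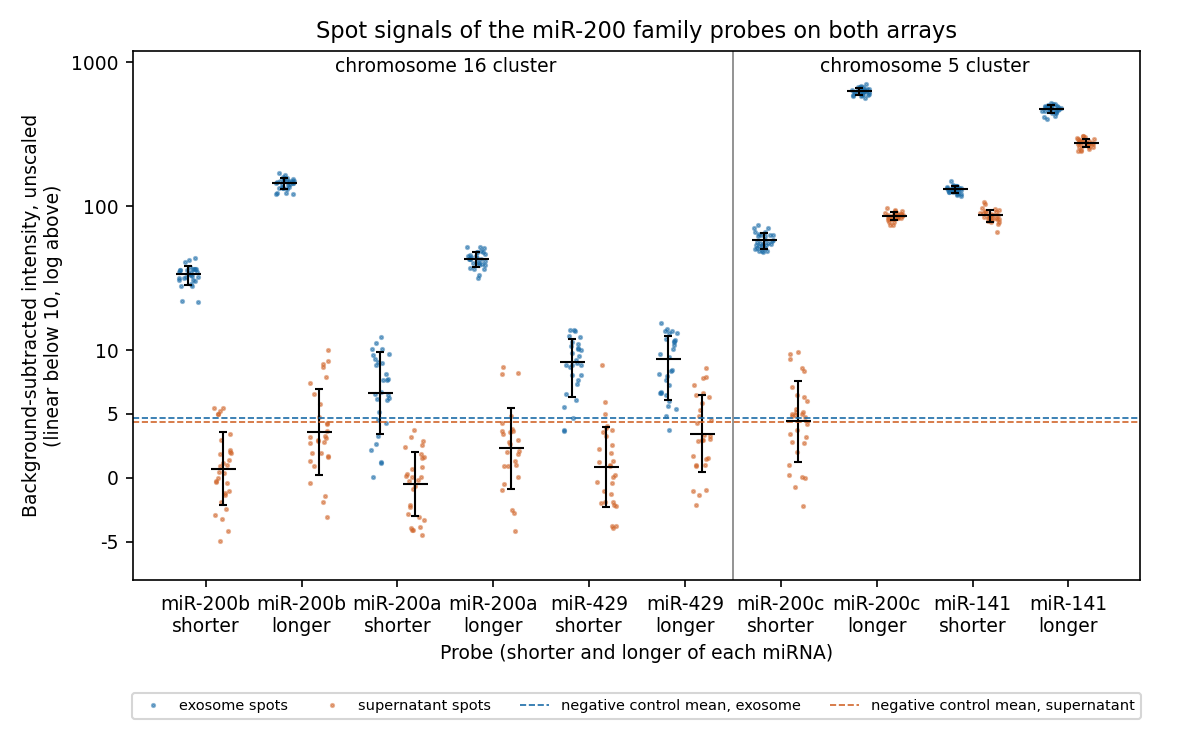
Background-subtracted intensity (vertical axis, arbitrary scanner units, unscaled, linear below 10 and logarithmic above) of each spot of the shorter and longer probe of the 5 members on the exosome array (blue) and the supernatant array (orange); black bars are mean ± SD between spots, and dashed lines are the negative control means of 4.67 and 4.41. The supernatant spots of the chromosome 16 cluster lie between -4.92 and 9.99. Those of the longer probes of miR-200c and miR-141 lie between 74.1 and 308.

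miR-200c, which carries the seed of miR-200b, was bright in exosome and weak in supernatant. Its longer probe read 629 ± 34.0 on the exosome array (30 spots, from 566 to 702) and 85.0 ± 5.48 on the supernatant array (29 spots, from 74.1 to 96.3). Its shorter probe read 57.8 ± 7.09 (from 48.3 to 73.6) and 4.42 ± 3.14 (from -2.20 to 9.87). With both probes, every exosome spot lay above every supernatant spot before any scaling. The share of all array probes whose spots stand apart is not given here. For this and the members below, spots standing apart therefore describe the spread within 2 arrays only. Only the longer probe was detected on the supernatant array. The shorter 1 read there what the negative control spots did, 4.41 ± 3.35 over 976 spots. The 75th percentile of all miRNA probes on that array was 2.92, below this control mean. Averaged over its probes, miR-200c read 343 ± 24.5 and 44.7 ± 4.47, an unscaled log2 difference, exosome over supernatant, of 2.94 ± 0.18.

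miR-141, its neighbour with the other seed, was bright on both arrays and differed less than miR-200c. Its longer probe read 473 ± 29.0 on the exosome array (30 spots, from 404 to 524) and 275 ± 18.1 on the supernatant array (30 spots, from 239.8 to 308). Its shorter probe read 130.4 ± 6.91 (from 118 to 149.9) and 86.1 ± 8.53 (29 spots, from 65.9 to 107). The spots of each probe did not overlap between the arrays, and miR-141 was the only member with both probes detected on both. The unscaled log2 differences of these probes were 0.78 and 0.60. Averaged over its probes, miR-141 read 302 ± 21.1 and 181 ± 14.1, a log2 difference of 0.74 ± 0.15.

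miR-200b, the member of the chromosome 16 cluster with the clearest signal, was seen in exosome alone. Its longer probe read 144 ± 12.7 on the exosome array (30 spots, from 122 to 171) and 3.62 ± 3.37 on the supernatant array (29 spots, from -3.03 to 9.99). Its shorter probe read 33.5 ± 5.09 (29 spots, from 21.7 to 43.9) and 0.731 ± 2.86 (30 spots, from -4.92 to 5.47). The spots of both probes stood apart between the arrays, and no supernatant spot was well above background. The mean over probes was 88.5 ± 9.70 and 2.18 ± 3.12. Since the supernatant side was not well above background, the difference has a lower bound only. The bound sets the exosome signal against the lowest signal of a detected miRNA on the supernatant array, 7.04 before scaling, wherever the dim signal is lower. Against this floor miR-200b was at least 12.6-fold higher in exosome before scaling (log2 3.65). Taken singly against the lowest signal of a detected supernatant probe, 18.8, its probes had lower log2 bounds, 2.93 for the longer and 0.83 for the shorter. With the floor raised to 14.5, the mean plus 3 SD of the negative control spots, the bound was 6.12-fold. The longer probes of miR-200b and miR-200c share a run of 10 bases, and miR-200c read 343 in exosome and 44.7 in supernatant. Binding of miR-200c to the probes of miR-200b was not tested.

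miR-200a, which carries the seed of miR-141, rested on 1 probe. Its longer probe read 43.0 ± 5.24 on the exosome array (29 spots, from 31.8 to 52.0) and 2.32 ± 3.16 on the supernatant array (26 spots, from -4.18 to 8.69). Its shorter probe read 6.66 ± 3.21 (29 spots, from 0.058 to 12.3) and -0.489 ± 2.51 (28 spots, from -4.46 to 3.73). The longer probe's spots stood apart between the arrays, whereas those of the shorter probe overlapped and 0 of its 29 exosome spots were well above background. The mean over probes was 24.8 ± 4.34 and 0.913 ± 2.85, at least 3.53-fold higher in exosome before scaling (log2 1.82) and at least 1.72-fold with the higher floor. Against the lowest signal of a detected supernatant probe, 18.8, the longer probe alone had a log2 bound of 1.19. The closest probes of miR-200a and miR-141 differ by 2 mismatches. On the supernatant array, where miR-141 read 181, those of miR-200a read below the negative control mean of 4.41. On the exosome array, where miR-200a was detected, miR-141 read 302. Binding of miR-141 to the probes of miR-200a was not tested.

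miR-429, the third member of the chromosome 16 cluster, was not well above background on either array. Its shorter probe read 9.08 ± 2.77 on the exosome array (29 spots, from 3.66 to 13.8) and 0.869 ± 3.12 on the supernatant array (29 spots, from -3.88 to 8.80). Its longer probe read 9.28 ± 3.15 (29 spots, from 3.77 to 15.3) and 3.45 ± 3.00 (28 spots, from -2.14 to 8.60). The arrays overlapped with both probes, and no fold is given. On the exosome array all spots of both probes carried the weaker flag, positive and significant, as did those of 39 of the 1362 probes not detected there (2.86%). The negative controls read 4.67 ± 3.46 on that array, and 63.2% of their 981 spots carried the same flag, against 26.2% of all miRNA spots. A single flagged spot therefore does not separate signal from control here. By the weaker flag miR-429 would be detected on the exosome array, as 26.3% of all miRNAs would, and all 5 members would be seen there. On the supernatant array 20.7% and 42.9% of the spots of miR-429 carried it, against 57.7% of the control spots and 26.9% of all miRNA spots. By the weaker flag 27.0% of all miRNAs would be detected on that array, and miR-429 would not.

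**Figure D2:**
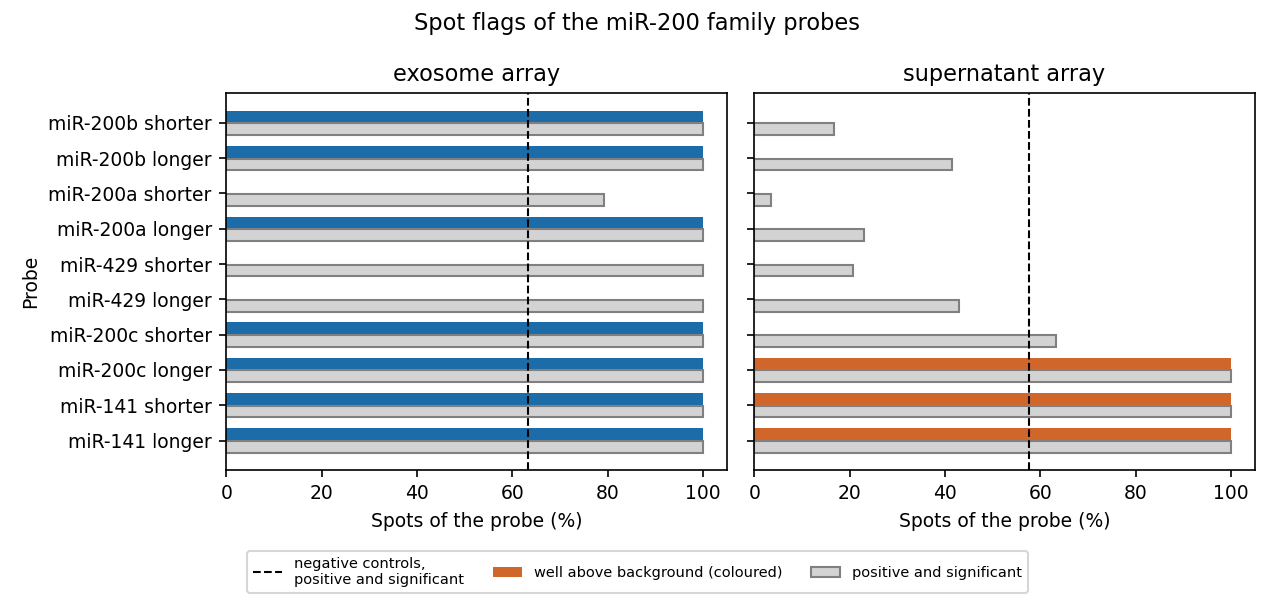
Percent of spots (horizontal axis) of each family probe (rows) that were well above background (coloured bars) or positive and significant (grey bars), with the exosome array on the left and the supernatant array on the right; the dashed line is the share of negative control spots that were positive and significant, 63.2% and 57.7%. Every family probe has either all or none of its spots well above background.

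The comparison of the members with each other asked whether they divided alike between the fractions. A factor common to an array, such as its brightness, cancels when the log2 difference of a member is subtracted from that of another. The log2 difference of miR-200c exceeded that of miR-141 by 2.20 ± 0.23, or 4.59-fold, although both genes lie in the chromosome 5 cluster. The longer probes alone gave 2.10. The gap was many times the SD between spots, but its spread between preparations is unknown. It shrank to 1.18 with normexp background correction, which includes an offset of 50. With that correction miR-200c read 411 in exosome and 131 in supernatant, and miR-141 read 370 and 267.

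The bounds placed miR-200b above miR-141 as well. The lower bound of miR-200b exceeded the log2 difference of miR-141 by 2.91, with 2.14 for the longer probes and 0.23 for the shorter ones. It stood at 1.87 with the higher floor of 14.5, and at 0.27 with normexp. miR-200b and miR-200c, which share a seed, could not be ordered: the gap was 0.71 with the floor of 7.04 and -0.33 with the higher floor. The bound of miR-200a exceeded miR-141 by 1.08, a gap of 0.039 with the higher floor and of -0.48 with normexp, and lay 1.12 below miR-200c, which leaves the order with miR-200c unknown. Of the members with a value or bound, miR-141 thus differed less between the fractions than miR-200c and miR-200b; its place against miR-200a depended on the floor and the correction.

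The size and for miR-141 the direction of each difference depended on how the arrays were brought to a common scale. Each array was divided by the 75th percentile over the 53 probes that both arrays detected, which moved every log2 difference up by 4.99. After it, miR-200c stood at 7.93 and miR-141 at 5.73. With the floor of 7.04 before scaling, the bounds were 8.64 for miR-200b, or at least 399.5-fold, and 6.81 for miR-200a, or at least 112-fold. On the exosome array that percentile, 473, was the signal of the longer miR-141 probe itself, and 3 of the 53 probes belong to the family. Without them, miR-200c stood at 8.17 and miR-141 at 5.97.

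Of the spiked RNAs, the labelling controls were brighter on the exosome array and the hybridisation controls were nearly equal. The labelling controls dmr_285 and dmr_31a, added before labelling, read 237 and 116 on the exosome array and 67.4 and 44.3 on the supernatant array, which is 3.52-fold and 2.62-fold brighter in exosome. Those added at hybridisation, dmr_3 and dmr_6, gave exosome over supernatant ratios of 0.946 and 0.938. Scaled to the labelling controls, miR-141 had a log2 difference of -0.86, higher in supernatant, while miR-200c stood at 1.34 and the bounds of miR-200b and miR-200a at 2.05 and 0.22. The part of labelling in these differences was not tested. Under all 7 scalings run, miR-200c was higher in exosome, and miR-141 was higher in exosome under 6 and lower under the labelling controls. With the floor at the lowest detected signal, miR-200b and miR-200a had a bound above 1-fold under all 7. For miR-200a this depended on the floor. With the higher floor of 14.5 its unscaled log2 bound was 0.78, and the labelling controls move every log2 difference by -1.60.

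**Figure D3:**
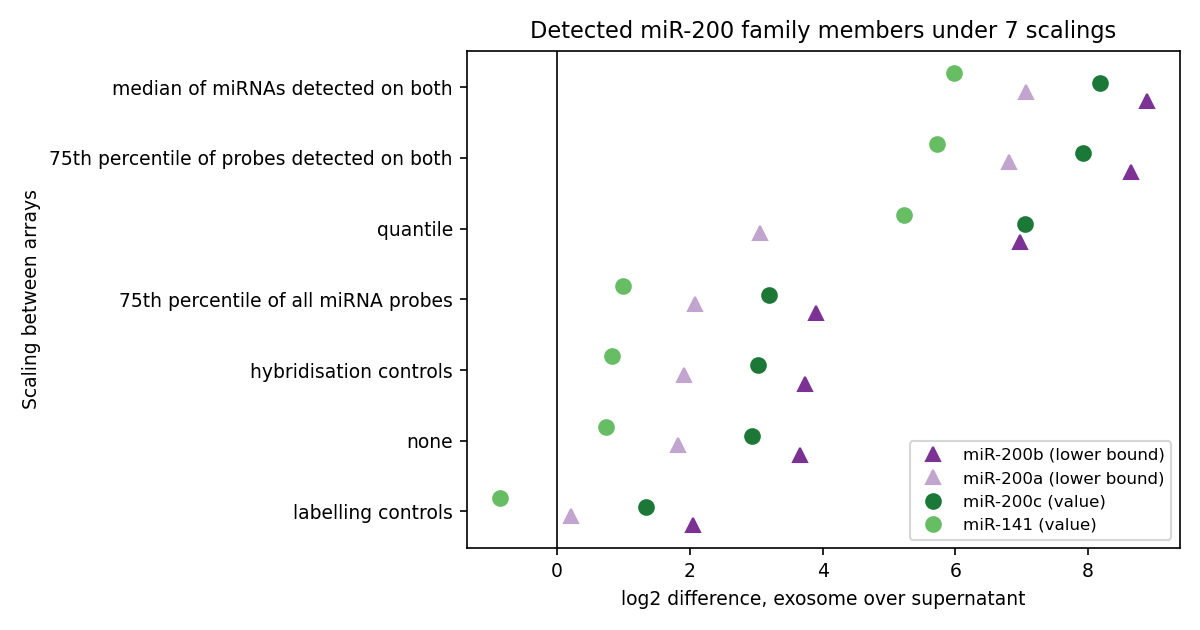
The log2 difference, exosome over supernatant (horizontal axis), of the 4 detected members under each of 7 scalings (rows); circles are values of the members detected on both arrays and triangles are lower bounds of those detected on the exosome array only. The symbols shift together from row to row, except under quantile normalization, and miR-141 crosses 0 in the row of the labelling controls, at -0.86.

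Among the 30 miRNAs detected on both arrays, the members with a value lay toward the exosome end. Of the 30 miRNAs detected on both arrays, 53.3% had at least a 2-fold exosome excess once scaled, as did both family members; before scaling the share was 16.7% and 1 of the 2, miR-200c, was. Over the 30, log2 differences had a median of 1.30 with scaling and of -3.69 before it. By log2 difference miR-200c ranked 3 and miR-141 ranked 6 of the 30. The miRNAs detected on the exosome array only have no value and were not ranked. Some of them had a scaled lower bound above the value of miR-200c, 7.93, for example let-7a at 10.8. Counting lower bounds too, 4 of the 5 family members reached a 2-fold excess in exosome on the scaled values, against 7.76% of all 670 miRNAs. Before scaling it was 3 of 5 against 5.07%, and with the higher floor, where miR-200a no longer reached 2-fold, 2 of 5 against 2.69%. On the scaled values all 36 miRNAs detected on the exosome array only reached 2-fold. For miR-200b and miR-200a the scaled count therefore restates their detection.

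In length and GC content the longest probes of the family differed from the medians of miRNAs seen in supernatant. The longest probes of the 5 members had 15 to 19 bases and a GC content of 44.4% to 53.3%, near the medians of 17 bases and 50% over all miRNAs. The miRNAs detected on both arrays had medians of 13 bases and 70.7% GC, and those on the supernatant array only 14 bases and 71.4%. The spread within these groups is not given here. miR-141, with 17 bases and 47.1%, and miR-200c, with 15 bases and 53.3%, were longer and poorer in GC than those medians. The exosome-only miRNAs had medians of 18 bases and 46.9%, close to miR-200a at 18 bases and 44.4% and miR-200b at 17 bases and 47.1%.

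The miRNAs outside the family with the most similar division were picked by the absolute gap between log2 differences over the 2 arrays, among the 30 detected on both. For miR-200c these were miR-2478, which read 69241 ± 5134 and 7814 ± 636, with a gap of 0.21, let-7b with 1.27 and miR-375 with 1.65. For miR-141 they were miR-423-5p with a gap of 0.37, miR-375 with 0.55 and miR-92 with 1.07. miR-375, an epithelial miRNA of secretory tissues that read 40.1 ± 6.42 and 16.4 ± 4.38, stands in both lists. With 2 arrays such likeness is a description of these fractions only.

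Other epithelial miRNAs were detected about as often as miRNAs in general. Of 11 on the array, among them miR-205 of skin and glands and the miR-183 cluster, miR-375 was detected on both arrays and miR-34a (14.8 ± 3.32 and 3.58 ± 3.24) on the exosome array only, which left 9 detected on neither, where 81.9% of all miRNAs lay. Of 19 entries for miRNAs common in milk and mammary tissue, the exosome array detected 12 and the supernatant array 6. The lists for other cells are short, and their counts are to be read against the 9.85% and 12.7% of all miRNAs detected on the exosome and supernatant arrays. Of 11 mesenchymal and endothelial entries 0 were detected on either array, and their background-subtracted signals summed to -9.37 in exosome and -13.8 in supernatant. Of 7 leukocyte entries only miR-223 was detected, and of 3 erythroid entries only miR-486, both on the supernatant array alone. The leukocyte signals summed to 5.76 in exosome and 18.1 in supernatant, and the erythroid signals to -2.10 and 33.4. miR-486 and miR-223 were seen where miR-200a and miR-200b were not; their part in the division of the family was not tested.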

How the data were processed

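Per the file headers and the submitters' processing notes, Agilent Feature Extraction 10.7.3.1 turned the 1-colour (Cy3) scans into spot values. As deposited, these are intensities less background, and no scaling between the arrays was found. The authors' deposited table of log2 values equals log2 of the software's total signal divided by 0.1, its value for miRNAs not detected, to within 6.2e-06. Further steps of the authors are not given in the sources used here.

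Outlier spots were left out, 1005 and 1032 of 40200 miRNA spots on the exosome and supernatant array. No miRNA spot was saturated. Spots were averaged per probe and probes per miRNA on the linear scale; a miRNA's SD pools the variances of its probes with equal weight, and the SD of a log2 difference follows from both arrays' relative SDs. The number of arrays, 1 per fraction, limits the precision. The lowest detected signals were 8.21 (exosome) and 7.04 (supernatant) per miRNA. No test was run. The steps were tested on simulated data. The members and lists were chosen with earlier results of these data known. All family entries are named, with the 3 nearest miRNAs of miR-200c and miR-141 each and some detected members of the 5 lists, any of which could be named. Alternatives covered detection, scaling, background correction, probe summary, outliers and odd or even spots. Mature miRNA sequences were not used here, so the seeds are as usually assigned. Software was limma 3.58.1 under R 4.3.3 for normexp, and Python 3.11.15 with pandas 2.3.3, numpy 2.4.6 and matplotlib 3.10.9 for the rest.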

Additional observations from a re-analysis of the deposited data

How the results depend on the processing

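The count of members detected on the exosome array lay between 3 and 5 over 6 alternatives. On the supernatant array it was 2 under 5 of 6 and 1 when every probe was required, which leaves miR-141. The median log2 difference of miR-200c and miR-141, 6.83 after scaling, was 1.84 without scaling, 2.09 with the 75th percentile of all miRNA probes, 1.93 with hybridisation controls and 0.24 with labelling controls. It was 6.14 with quantile normalization, 7.08 with the median of miRNAs detected on both arrays, 7.07 without the family's probes in the scale, 5.87 with normexp, 6.67 with outlier spots kept, and 7.07 with the software's total signal and with the value table. miR-141 turned to -0.86 with labelling controls. The gap between miR-200c and miR-141, 2.20, was 1.82 with quantile normalization and 1.18 with normexp, and moved by less than the SD between spots, 0.23, under the other 14 of 16 alternatives. The gap between the bound of miR-200b and miR-200c turned to -0.082 with quantile normalization, -0.91 with normexp and -0.33 with the higher floor. That between the bound of miR-200a and miR-141 turned to -2.17 with quantile normalization and -0.48 with normexp; a negative gap to a bound leaves the order unknown. The cause of these shifts was not tested. The normexp offset of 50 exceeds the dim signals, and the correction raised them by more than that offset. In supernatant miR-200b read 88.7 with it and 2.18 without it. The shorter probe alone gave no value for miR-200c, which it did not detect in supernatant. The higher floor, the shorter probe alone and the scale without the family were added after the data were seen. No paired analysis was possible because each fraction has 1 array and the labels give no replicate numbers. Signal near background limits miR-429 and the supernatant side of miR-200a and miR-200b.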
